A study of Mus musculus with 47 samples.

Results

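Endothelial cells line every blood and lymph vessel, and 10 genes that mark them were followed through the liver, lung and brain of mouse embryos. The genes were taken by symbol from the deposited count table, and all 10 of the 10 were found among its 20456 genes. They were Pecam1, Cdh5, Kdr, Flt1, Tek and Vwf, which are made by endothelium in most organs, and Stab2, Lyve1, Gpr182 and Clec4g, which mark the sinusoidal endothelium of the liver and, for Lyve1, lymphatic vessels. All 10 passed the filter on low counts, which left 16892 genes to be tested.

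The 47 RNA-seq libraries came from 17 embryos of 8 litters at E18.5, late gestation, on a C57BL/6 background, and fell into 12 groups. Embryos homozygous for Daxx S226A, an allele made to lose binding to the histone H3.3, gave 4 livers, 4 lungs and 4 brains, and so did their wild-type (WT) littermates. Embryos homozygous for Daxx Y130A, an allele made to lose binding to Atrx, also gave 4 of each tissue, and their WT littermates gave 4 livers, 3 lungs and 4 brains. A further WT lung that the study set aside was not analysed here. Both alleles are germline point mutations carried by every cell of the embryo, made by CRISPR knock-in and backcrossed to C57BL/6J, and the litters came from crosses of heterozygous parents. RNA was taken from whole frozen tissue, so a member's level reflects both the number of endothelial cells and the RNA that each makes, and fewer cells of a type and less RNA per cell cannot be told apart. The libraries of the S226A litters held 15722147 to 26190403 counts and those of the Y130A litters 36351738 to 54885020, so the sets differed in depth. Tissue labels were checked against marker genes. The summed level of 8 hepatocyte genes was 143417 to 211551 CPM (counts scaled by TMM to equal library size) in the livers and at most 1228 CPM elsewhere, that of 8 lung epithelium genes 7313 to 11788 CPM in the lungs and at most 37.7 CPM elsewhere, and that of 8 neuronal genes 6102 to 7475 CPM in the brains and at most 48.1 CPM elsewhere. Transcripts of squamous epithelium stood out in 2 livers, the WT replicate 2 of the S226A litters at 1144 CPM and Y130A replicate 1 at 757 CPM, where other livers held at most 11.3 CPM. The lungs held 32.2 to 312 CPM of them and the brains at most 50.6 CPM. Daxx RNA was at 27.2 to 50.9 CPM over all libraries and passed the test in no comparison of a mutant with its littermates, which for a point mutation does not check the genotype. For Daxx protein the paper reports a higher level in Y130A and a lower one in S226A, clearest in embryonic fibroblasts.

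As background, Pecam1 (CD31) and Cdh5 (VE-cadherin) are adhesion molecules of the endothelial junction, and Vwf is the clotting protein stored in endothelium, which megakaryocytes also make. Kdr and Flt1 are receptors for vascular endothelial growth factors, and Tek (Tie2) is the receptor for angiopoietins. Stab2 and Lyve1 take up hyaluronan, Stab2 as a scavenger receptor of the liver sinusoid, while Gpr182 is an endothelial scavenger of chemokines and Clec4g a lectin of liver sinusoids. The fetal liver is also a blood-forming organ, and the lung at this age is building the capillary bed used from birth.

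The first comparison set the tissues side by side in WT embryos. Levels between genes were compared as CPM per kilobase (kb) of exon. In liver the sinusoidal Stab2 stood highest at 50.6 ± 3.92 CPM per kb (SD, n = 8), followed by Lyve1 at 33.3 ± 4.16 and Cdh5 at 25.2 ± 2.55. Kdr followed at 16.0 ± 1.47, and Gpr182 (12.02 ± 1.47) and Pecam1 (11.9 ± 0.964) were within each other's spread. Tek (8.87 ± 1.02), Clec4g (8.23 ± 1.51) and Vwf (7.86 ± 1.04) also overlapped, and Flt1 was lowest at 4.54 ± 0.605. In lung the order was led by the junction genes, Cdh5 at 130.4 ± 31.1 CPM per kb (SD, n = 7) and Pecam1 at 89.1 ± 8.98. Their gap depended on the litter set, with Cdh5 at 151.7 ± 21.2 and Pecam1 at 88.5 ± 12.1 in the S226A litters (n = 4) and at 102.1 ± 11.5 and 89.8 ± 4.71 in the Y130A litters (n = 3). Kdr (51.7 ± 4.51) and Lyve1 (44.4 ± 6.18) came next and overlapped, then Tek at 28.7 ± 3.62. Flt1 (7.60 ± 1.09) and Vwf (7.27 ± 2.61) overlapped over the pooled lungs, but Vwf depended on the litter set, with Flt1 at 8.32 ± 0.849 and Vwf at 9.10 ± 1.74 in the S226A litters (n = 4) and Flt1 at 6.64 ± 0.256 and Vwf at 4.82 ± 0.447 in the Y130A litters (n = 3). Gpr182 (3.52 ± 0.327), Stab2 (2.43 ± 0.917) and Clec4g (0.253 ± 0.214) closed the list. In brain, every member was lower than in lung. Kdr led at 9.39 ± 1.03 CPM per kb (SD, n = 8), ahead of Cdh5 at 7.06 ± 0.643, and Tek (5.43 ± 0.364) and Pecam1 (5.42 ± 0.531) were level. The sinusoidal genes Gpr182 (0.313 ± 0.0611), Stab2 (0.0552 ± 0.0268) and Clec4g (0.00887 ± 0.0113) were lowest, and Clec4g had at most 4 counts in any WT brain and was at 0 in 4 of the 8. The plot of WT levels by tissue shows these orders.

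**Figure D1:**
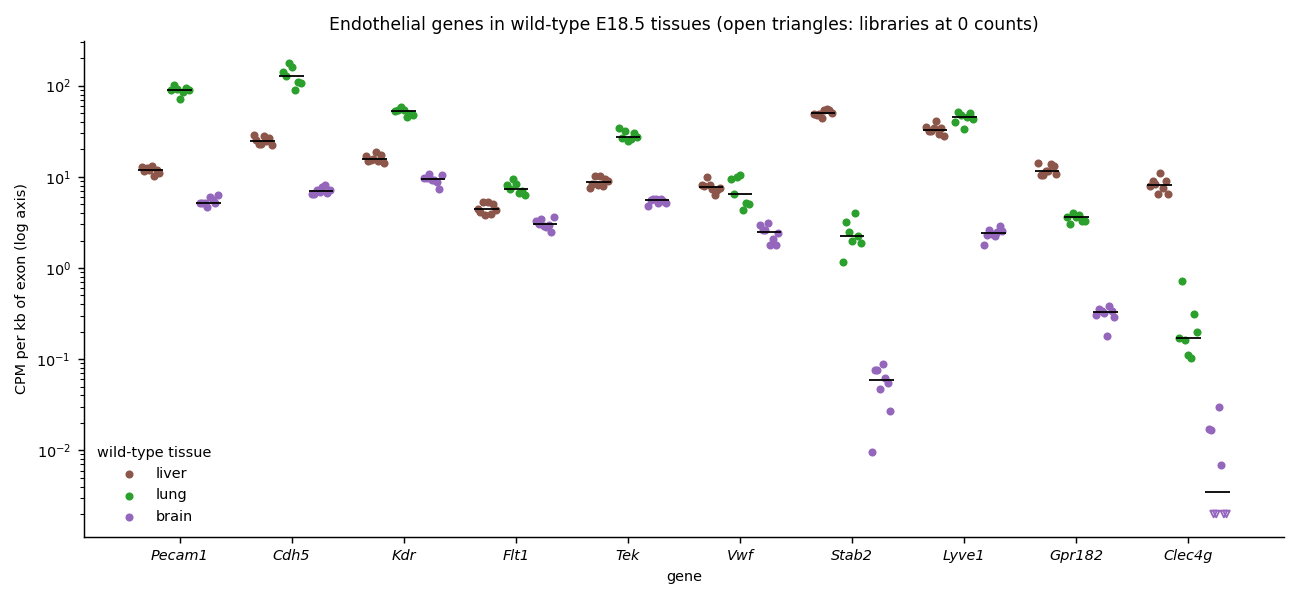
CPM per kb of exon, on a log axis, for each endothelial gene in WT liver (n = 8), lung (n = 7) and brain (n = 8) at E18.5, with 1 point per library, a bar at the median and open triangles for libraries at 0 counts. Pecam1, Cdh5, Kdr and Tek are highest in lung, Stab2, Gpr182 and Clec4g are highest in liver, and brain is lowest for each gene.

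Between WT liver and lung, 7 of the 10 genes passed the test at an adjusted p below 0.05 and a change beyond 2-fold, where 46.5% of all genes did, 20.1% higher in liver and 26.4% lower. The test was edgeR's quasi-likelihood test with Benjamini-Hochberg adjustment over the 16892 genes, here and below. The 4 genes higher in lung were general endothelial genes. Pecam1 was at 74.0 ± 6.00 CPM in liver and 555 ± 56.0 CPM in lung (log2 fold change, liver over lung, -2.91, SE 0.08), and Cdh5 at 106 ± 10.7 and 548 ± 131 CPM (-2.30, SE 0.09). Kdr (-1.67, SE 0.07) and Tek (-1.69, SE 0.07) were likewise lower in liver. The 3 genes higher in liver were all of the sinusoidal group. Stab2 was at 443 ± 34.3 CPM in liver and 21.3 ± 8.03 CPM in lung, a 20.6-fold difference, and Clec4g at 20.3 ± 3.72 and 0.623 ± 0.527 CPM, a 33.1-fold difference that rests on 5 to 39 counts per lung. Gpr182 was 3.42-fold higher in liver. Lyve1 did not share that direction, with 97.3 ± 12.1 CPM in liver and 129.6 ± 18.04 CPM in lung. Its log2 difference of -0.42 (SE 0.10), like that of Flt1 (-0.71, SE 0.09), had an adjusted p below 0.05 without reaching 2-fold. Vwf had a pooled value of 0.24 (SE 0.09), but its direction differed between litter sets, at 138 ± 14.9 CPM in liver and 146 ± 28.0 CPM in lung for the WT of the S226A litters and at 115 ± 8.82 and 77.5 ± 7.18 CPM for the WT of the Y130A litters. Its adjusted p of 0.0183 rose to as much as 0.0872 over the alternatives. Some of these levels can come from cells other than endothelium, since WT liver was also richer in 8 of 9 megakaryocyte genes and 13 of 13 macrophage genes. The part of those cells in the members' levels was not tested.

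Against brain, 7 of 10 genes were higher in WT liver beyond 2-fold, where 28% of all genes were, and all 10 were higher in WT lung, where 27.2% were. Kdr, Flt1 and Tek made up the 3 that did not reach 2-fold between liver and brain (log2 0.77, 0.56 and 0.71). Lung exceeded brain 16.5-fold for Pecam1, 17.6-fold for Cdh5 and 18.51-fold for Lyve1, but 2.42-fold for Flt1. These folds pool the litter sets, which differed for Cdh5, at 637 ± 89.1 CPM in lung and 28.2 ± 1.49 CPM in brain in the WT of the S226A litters and at 429 ± 48.1 and 31.2 ± 2.97 CPM in the WT of the Y130A litters, so the order of Cdh5 against Pecam1 and Lyve1 is not fixed. No fold is given for Clec4g against brain because its brain counts are too few. Tissues of 1 embryo are not independent samples, and a fit with the embryo as a block gave the same counts of 7, 7 and 10.

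Some of the wider endothelial lists showed the directions of the members between tissues and others did not. Of 25 further general endothelial genes, 20 were lower in liver than in lung and 1 was higher, with a median log2 difference of -1.94, where the median of all genes tested was -0.08. The exception was Tal1 (log2 3.94), a transcription factor that blood-forming cells share. Of 14 lung capillary genes, 12 were lower in liver. Of 16 further sinusoidal genes, 9 were higher in liver and 1, Wnt2, was lower, with a median of 1.30. Dnase1l3 (7.44), Oit3 (5.02) and the clotting factor gene F8 (3.06) were among those higher. Of 12 arterial and venous genes 9 were lower in liver and 1 was higher, and of 14 ligands and partner receptors of Kdr, Flt1 and Tek 9 were lower and 2 higher. The lymphatic list (2 of 7 higher and 2 lower in liver) and the brain capillary list (3 of 12 higher and 2 lower) were mixed. Between lung and brain, where all 10 members were higher in lung, 23 of the 25 general genes were, but 4 of 7 lymphatic genes were higher and 2 lower, and 3 of 12 brain capillary genes were higher and 4 lower. The summed lymphatic level was lowest in lung, with WT medians of 456 and 401 CPM for the S226A and Y130A litters, against 1056 and 1067 CPM in liver and 832 and 742 CPM in brain. In WT liver much of that sum was Reln and Prox1 (values below), which stellate cells and hepatocytes also make. The sum therefore does not rank the tissues by lymphatic endothelium.

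Upstream sequence was available from RefSeq for 5 of the 10 genes, and the 250 bases before the start site are shown for 4, a pair higher in lung (Kdr and Tek) and a pair higher in liver (Stab2 and Clec4g). For Stab2 only the 167 bases that lie before the GENCODE start as well are printed, and the last 3 bases of the Kdr stretch lie past its GENCODE start. All are on GRCm38.p6 and are written on the gene's own strand. Kdr lies at chr5:75978456-75978705 on the minus strand, Tek at chr4:94739039-94739288 on the plus strand, Stab2 at chr10:87008026-87008192 on the minus strand and Clec4g at chr8:3720652-3720901 on the minus strand. Capitals mark GGAA on either strand (GGAA or TTCC, overlaps included), the core letters bound by ETS factors, a family that includes regulators of endothelial genes.
Kdr: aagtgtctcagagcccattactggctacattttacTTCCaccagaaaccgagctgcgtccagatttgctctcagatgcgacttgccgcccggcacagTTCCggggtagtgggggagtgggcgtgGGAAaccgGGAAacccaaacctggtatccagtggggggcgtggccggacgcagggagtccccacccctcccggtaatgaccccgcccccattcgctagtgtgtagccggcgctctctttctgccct
Tek: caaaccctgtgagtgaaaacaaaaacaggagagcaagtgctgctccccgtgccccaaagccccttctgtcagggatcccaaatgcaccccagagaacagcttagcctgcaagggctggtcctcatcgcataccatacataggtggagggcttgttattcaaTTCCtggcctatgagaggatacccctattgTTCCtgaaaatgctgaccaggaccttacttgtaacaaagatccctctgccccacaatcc
Stab2: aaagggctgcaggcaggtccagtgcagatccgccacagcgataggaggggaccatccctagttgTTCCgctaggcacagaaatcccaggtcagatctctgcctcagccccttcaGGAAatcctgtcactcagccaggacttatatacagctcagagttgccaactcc
Clec4g: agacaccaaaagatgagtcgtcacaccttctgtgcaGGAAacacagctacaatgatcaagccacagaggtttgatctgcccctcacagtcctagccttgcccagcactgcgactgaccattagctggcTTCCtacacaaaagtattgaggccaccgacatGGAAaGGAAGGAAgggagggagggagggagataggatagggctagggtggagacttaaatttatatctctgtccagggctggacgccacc
The letters occurred 4 times for Kdr, 2 times for Tek, 2 times for Stab2 and 5 times for Clec4g. They are common, being present in 93.4% of 32851 RefSeq windows of 250 bases (mean 2.91 a window) and in 84.7% of those of 167 bases, so their presence sets no member apart. The letters TATAAA, searched on both strands, were present for Clec4g and in the window of Flt1, which is not printed, and absent for Kdr, Tek and Stab2, and 12.4% of the 250-base and 8% of the 167-base windows held them. AGATAA, a form of the GATA motif, was in none of the 5, and 10% of the 250-base windows held it.

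The second comparison asked how the members stood in S226A embryos against their WT littermates. In liver all 10 log2 fold changes were negative, where 51.6% of all genes tested had a negative value, and their median was -0.22 against -0.01 over all genes. Without S226A replicate 2 the values of Lyve1 (0.08), Vwf (0.02) and Clec4g (0.02) turned positive, and within litters Lyve1 was lower in the mutant in 1 of 4, and Vwf and Clec4g in 2 of 4 each. The genes share libraries and cells and are not independent of each other. Cdh5, Gpr182 and Pecam1 fell, 3 of 10, where 5.54% of all genes were called lower, and no member rose, where 6.14% were called higher. Of the 10, 5 had an unadjusted p below 0.05, where 24.7% of all genes did.

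Between the junction genes, Cdh5 gave the clearer values. Cdh5 was at 84.7, 69.3, 66.95 and 84.3 CPM in the 4 S226A livers and at 121, 106, 95.7 and 95.7 CPM in the 4 WT livers. Every S226A liver lay below every WT liver. Cdh5 fell by 27.2% (log2 fold change -0.46, SE 0.12, adjusted p = 0.00697). Pecam1 was at 68.2, 50.4, 51.4 and 70.3 CPM in S226A and at 80.0, 71.4, 78.0 and 74.5 CPM in WT. These groups did not overlap either, although the highest S226A liver lay close to the lowest WT liver. Pecam1 fell by 21.1% (log2 -0.34, SE 0.11, adjusted p = 0.0363). In all 4 litters both genes were lower in the mutant than in its WT littermate. Groups that did not overlap, with the mutant lower, were found for 4 of 10 members (Pecam1, Cdh5, Kdr and Stab2) and for 5.18% of all genes.

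Of the growth factor receptors, none passed the test in S226A liver. Kdr was at 132, 101, 128 and 130.5 CPM in S226A and at 155, 135, 139 and 141 CPM in WT, so the groups did not overlap, with a log2 fold change of -0.22 (SE 0.10, adjusted p = 0.161). Flt1 was at 41.6 to 58.2 CPM in S226A and 52.0 to 72.1 CPM in WT (log2 -0.23, SE 0.12, adjusted p = 0.242). Tek was at 32.4 to 38.1 against 35.4 to 47.6 CPM (log2 -0.18, SE 0.09, adjusted p = 0.247). Vwf, the clotting protein, showed the smallest difference of this group, with 101 to 146 CPM in S226A and 127 to 160 CPM in WT (log2 -0.09, SE 0.13). The 9 megakaryocyte genes, the other main source of Vwf, summed to 269 to 301 CPM in S226A and 283 to 333 CPM in WT, and none of the 9 was called.

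**Figure D2:**
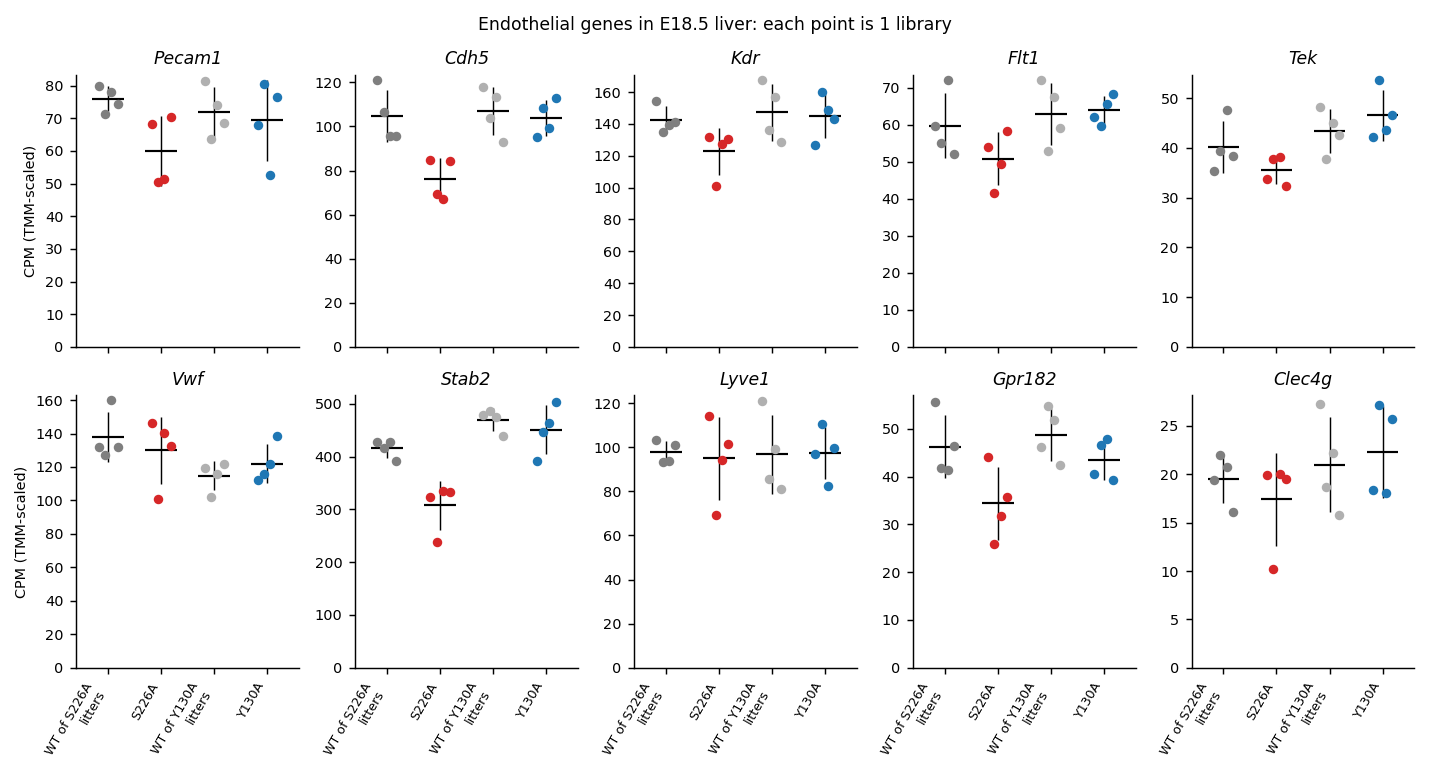
CPM in each E18.5 liver library for the 10 endothelial genes, by group (n = 4 each), with the mean (horizontal bar) and SD (vertical line). For Cdh5, Pecam1, Kdr and Stab2 the 4 S226A livers lie below the 4 WT livers of the same litters, and the Y130A livers overlap their WT littermates for all 10 genes.

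The sinusoidal genes were less uniform. Gpr182 was at 44.2, 26.01, 31.7 and 35.8 CPM in S226A liver and at 55.5, 41.8, 41.3 and 46.3 CPM in WT. The highest S226A liver overlapped the WT range, yet in each of the 4 litters the mutant was lower. Gpr182 fell by 25.7% (log2 -0.43, SE 0.15, adjusted p = 0.0462). Its exons share 74 bases with Zbtb39 on the opposite strand, as those of Stab2 share 141 with the antisense Gm16268 and those of Clec4g 146 with the antisense Gm16553, and the strand setting of the counts is not given in the sources used here. Stab2 was at 324, 239, 336 and 332 CPM in S226A and at 428, 416, 427 and 391 CPM in WT. Here too the groups did not overlap and all 4 litters showed the mutant lower. Its log2 fold change was -0.43 (SE 0.20), with an adjusted p of 0.176 in the fit of all 47 libraries without the litter. With the litter as a block, a true pairing by the labels, the adjusted p was 0.00417 in a fit of the compared libraries only. These fits differ in their libraries as well as in the pairing. Stab2 also passed with the compared libraries alone and no litter. Lyve1 (69.4 to 114 against 93.4 to 103 CPM, log2 -0.05, SE 0.14) and Clec4g (10.2 to 19.99 against 16.1 to 22.0 CPM, log2 -0.17, SE 0.35) overlapped widely. The lines that join littermates show these pairs.

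**Figure D3:**
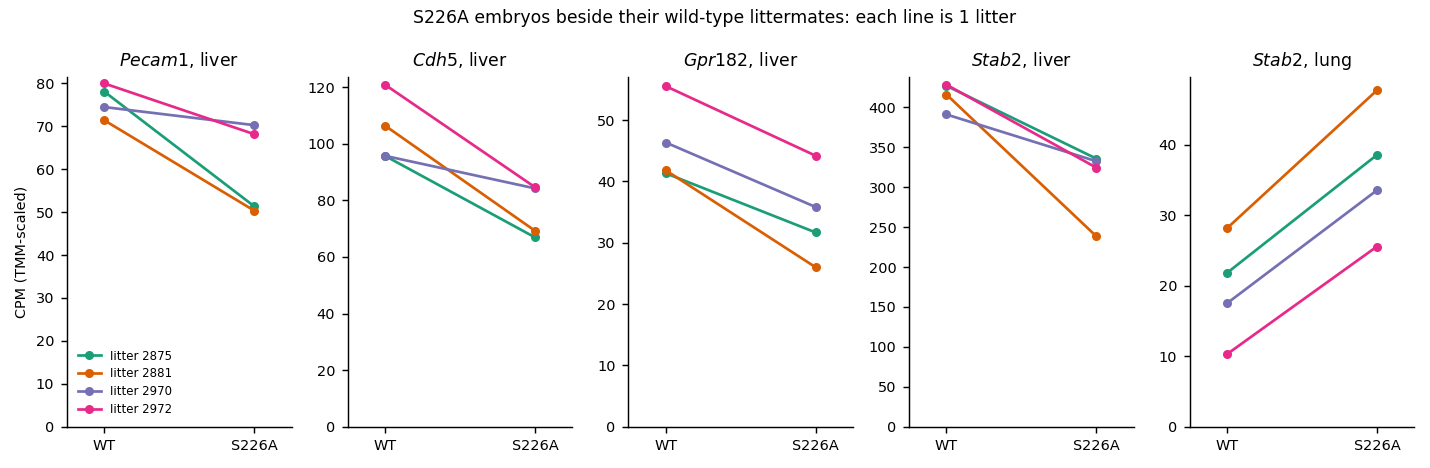
CPM in the WT and S226A embryo of each of the 4 S226A litters, 1 line per litter, for Pecam1, Cdh5, Gpr182 and Stab2 in liver and Stab2 in lung. The lines fall in all 4 litters for the 4 liver panels and rise in all 4 litters for Stab2 in lung.

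The calls rest on small groups. S226A liver replicate 2, the deepest library of its set, was the lowest of the 4 for 8 of the members, and without it Pecam1 (log2 -0.27, adjusted p = 0.146) and Gpr182 (-0.31, adjusted p = 0.186) were no longer called while Cdh5 was. Cdh5 was called in each of the 8 fits that left out a library, and Stab2 in none. Without S226A replicate 3, or WT replicate 1 or 4, Cdh5 was likewise the 1 call left, and Pecam1 was lost without WT replicate 3 (adjusted p = 0.0744) and Gpr182 without S226A replicate 4 (0.0658). With the 8 compared libraries fitted alone, Pecam1 (adjusted p = 0.121) and Gpr182 (0.137) were lost and Stab2 was called (0.0251), and without the filter on low counts Gpr182 was lost (0.0532). Without both livers that hold squamous transcripts the 3 calls were the same. Under the stringent criteria of the study (adjusted p below 0.01, a change beyond 2-fold and an SE below 1) no member was called, where 2.1% of all genes were.

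Other cell types moved in the same livers. The 13 macrophage and Kupffer cell genes summed to 290 to 416 CPM in S226A and 1092 to 1273 CPM in WT, with 12 of 13 called lower, and Vsig4 was at 0 in all 4 S226A livers. The 8 neutrophil genes summed to 8794 to 9446 CPM against 3025 to 3602 CPM, with 8 of 8 called higher. The 8 hepatocyte genes summed to 143417 to 167772 CPM against 171639 to 176737 CPM, with none called. The part of these shifts in the members' values was not tested.

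The further endothelial lists differed from each other in S226A liver. Of 25 general endothelial genes, 3 rose and 3 fell, with a median log2 fold change of 0.03. Clec14a, an endothelial surface lectin, fell from 39.0 ± 2.92 to 22.8 ± 3.61 CPM (log2 -0.78, SE 0.13), with Ptprb (-0.44), the phosphatase that acts on Tek, and Tal1 (-0.34). Icam2 (0.57), Cd34 (0.44) and Mmrn2 (0.41) rose. The summed level of the 25 was nonetheless lower, at 843 to 884 CPM against 947 to 981 CPM, a sum to which Tal1, shared with blood precursors, adds 219 ± 25.2 CPM in WT. Of 16 sinusoidal genes, 5 fell and none rose, with a median of -0.31, and their sum was 693 to 917 CPM against 1062 to 1135 CPM. Mrc1 (-1.02) and Maf (-0.67) are genes that macrophages also make, and Stab1 (-0.42) is shared with some of them. F8 (-0.45) encodes a clotting factor and Bmp2 (-0.72) a signal to hepatocytes. Of 14 ligands and partner receptors of Kdr, Flt1 and Tek, only Nrp2, a co-receptor for growth factors that is also on the lymphatic list, was called, and it fell (-0.43). Of 7 lymphatic genes, Nrp2 and Sema3d (-0.40) fell, and all 7 had negative values, with a median of -0.31. Their sum was 749.5 to 963 CPM against 1014 to 1104 CPM, of which Reln, which stellate cells of the liver also make, was 703 ± 30.6 CPM in WT and Prox1, which hepatocytes also make, 189 ± 9.32 CPM. Bmx, an arterial kinase that neutrophils also make, rose (1.44), and the arterial ligand Efnb2 fell (-0.54). Gpihbp1 (-0.94) and Tbx3 (-0.71) of the 14 lung capillary genes and Abcb1a (-0.58) of the 12 brain capillary genes fell as well.

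In S226A lung 8 of the 10 members had a positive log2 fold change and 2 a negative one, where 48% of all genes had a negative value, and their median was 0.13 against 0.0035 over all genes. The signs of Clec4g (from -0.69 to 0.998) and Flt1 (down to -0.03) turned when single libraries were left out. Stab2 rose, 1 of 10, where 0.852% of all genes were called higher, and no member fell, where 1.02% were called lower. Stab2 was at 25.6, 47.7, 38.6 and 33.5 CPM in S226A and at 10.3, 28.2, 21.8 and 17.5 CPM in WT. The lowest S226A lung lay within the WT range, but in each of the 4 litters the mutant was higher. The log2 fold change was 0.90 (SE 0.22, adjusted p = 0.0219). These values rest on 220 to 1024 counts per lung, and the same litter gave the lowest value of both groups, as another gave the highest of both. The call was lost without S226A replicate 2 (adjusted p = 0.148), without WT replicate 1 (0.0515) or 4 (0.0751), or when the 8 libraries were fitted alone (0.596). WT replicate 4 came from another embryo than the WT liver and brain of its litter. For transposable elements the paper treats a WT lung of this set as a possible outlier, and its label there resembles that of replicate 4. Stab2 is abundant in liver, so hepatocyte genes were read in the same lungs. They summed to 9.57 to 247 CPM in S226A and 10.02 to 440 CPM in WT, and none of the 8 was called. In both groups the litter highest for Stab2 was also highest for these genes, while in WT the litter lowest for Stab2 was not the lowest. The 8 neutrophil genes summed to 127 to 179 CPM against 32.5 to 76.2 CPM and the 13 macrophage genes to 138 to 173 CPM against 172 to 236 CPM. Of those 13, 3 were called lower (Cd163, Adgre1 and Csf1r) and 2 higher (Marco and Cd5l). The part of these cells in the Stab2 value was not tested.

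The other members of the sinusoidal group were not called in S226A lung. Lyve1 was at 138, 140, 150 and 177 CPM against 118, 152, 137 and 97.8 CPM (log2 0.26, SE 0.13, adjusted p = 0.335), Gpr182 had a log2 fold change of 0.18 (SE 0.15), and Clec4g, with 5 to 39 counts per lung, of 0.02 (SE 0.51). Among the general genes, Tek had 0.20 (SE 0.09, adjusted p = 0.26), Kdr 0.14 and Pecam1 0.12, while Cdh5 (-0.18) and Vwf (-0.13) had negative values. None of the 25 further general endothelial genes, 16 sinusoidal genes or 14 lung capillary genes was called. The 1 listed endothelial gene that changed was Prox1, the regulator of lymphatic identity, which fell from 12.3 ± 1.77 to 8.19 ± 2.20 CPM (log2 -0.59, SE 0.14, adjusted p = 0.0188).

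In S226A brain no member was called by edgeR, where 0.243% of all genes were, and 1 of 10 had an unadjusted p below 0.05, where 2.27% did. That gene was Lyve1. It was at 12, 8.51, 9.87 and 10.6 CPM in S226A brain and at 5.25, 6.70, 7.53 and 6.96 CPM in WT. Every S226A brain lay above every WT brain, on 125 to 343 counts, as for 1.24% of all genes. The log2 fold change of 0.63 (SE 0.16) had an adjusted p of 0.0804, and DESeq2, the tool of the study, called it (adjusted p = 0.0221), with 1 of 10 members called, where it called 0.391% of the genes to which it gave an adjusted p. Besides lymphatic vessels, macrophages of the brain's borders make Lyve1, and the 13 macrophage genes summed to 62.5 to 76.7 CPM in S226A brain and 103 to 108 CPM in WT. Of the 13, 5 were called lower (C1qa, C1qb, C1qc, Cd163 and Csf1r) and 1 higher (Marco, at 0 in all 4 WT brains). Their part in the Lyve1 value was not tested. For the other members with enough counts, the log2 fold changes lay between -0.44 (Stab2, SE 0.65, on 2 to 19 counts) and 0.19 (Vwf, SE 0.13). Gpihbp1, a capillary protein, rose (log2 2.53, SE 0.54), at levels of 0.582 and 0.0994 CPM.

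**Figure D4:**
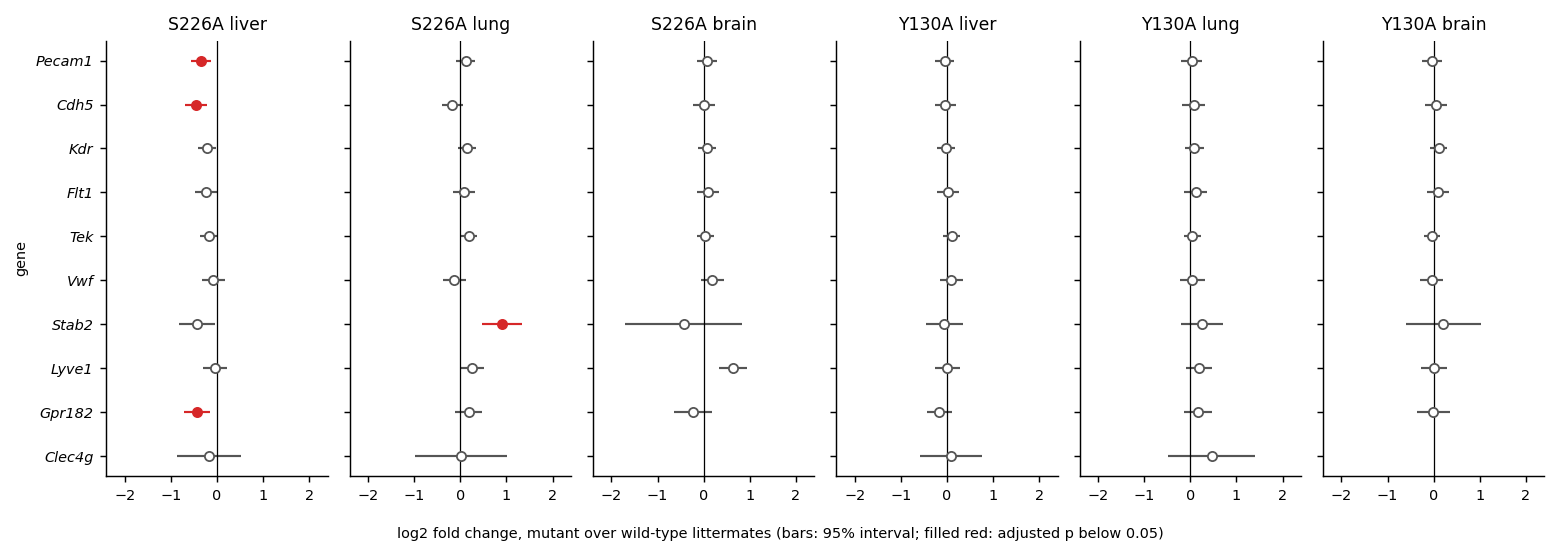
Log2 fold change of each endothelial gene in each mutant tissue over WT littermates, with 95% intervals. Red points mark an adjusted p below 0.05, which are Pecam1, Cdh5 and Gpr182 in S226A liver and Stab2 in S226A lung, and Clec4g in brain is left out because its counts are at most 4.

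The third comparison put Y130A embryos beside their WT littermates. No member was called by edgeR in Y130A liver, lung or brain, where 0.272%, 0.0178% and 0.00592% of all genes were, DESeq2 called none, and none of the 30 values had an unadjusted p below 0.05, where 9.22%, 2.92% and 2.22% of all genes did. In liver Cdh5 was at 95.4, 109, 99.1 and 113 CPM in Y130A and at 118, 104, 113 and 93.0 CPM in WT. The groups overlapped throughout, and the log2 fold change of -0.04 had a 95% interval of -0.27 to 0.19. For Pecam1 the interval was -0.27 to 0.16, for Gpr182 -0.44 to 0.12 and for Stab2 -0.46 to 0.34. In lung all 10 log2 fold changes were positive, from 0.03 (Pecam1) to 0.47 (Clec4g), where 50.9% of all genes had a negative value. Leaving out WT replicate 1 turned Cdh5 (-0.02), Vwf (-0.03) and Pecam1 (-0.0047) negative, as leaving out Y130A replicate 2 did Pecam1 (-0.01), and for 7 of the 10 genes the mutant was lower in 1 of the 3 litters with both genotypes. Stab2 had 0.25 (95% interval -0.19 to 0.70). In brain Lyve1 had 0.01 (95% interval -0.28 to 0.29). None of the further endothelial lists held a called gene in any Y130A tissue.

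Whether the effects of the alleles differed was tested directly, as the S226A difference minus the Y130A difference. No member was called in liver, lung or brain by edgeR, where 5.9%, 0.308% and 0.0829% of all genes were, or by DESeq2. In liver all 10 values were negative, where 51.6% of all genes were, but that of Lyve1 turned positive without S226A replicate 2, Y130A replicate 2 or WT replicate 4 of the Y130A litters (up to 0.07). Of these, 2 had an unadjusted p below 0.05 in edgeR, where 18.4% of all genes did, Cdh5 (log2 -0.42, SE 0.17, adjusted p = 0.141) and Tek (-0.27, SE 0.13, adjusted p = 0.247). In lung Stab2 had 0.65 (SE 0.31, adjusted p = 0.5) and in brain Lyve1 had 0.62 (SE 0.21, adjusted p = 1). A different effect of the alleles on a member was therefore not shown at this depth and number of litters. Among the listed genes beside the members, Clec14a (-0.73), Mrc1 (-1.02), Maf (-0.61), F8 (-0.62) and Abcb1a (-0.77) had lower and Icam2 (0.76) and Bmx (1.34) had higher values, each past the threshold in liver.

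The WT embryos of both sets carry the same genotype, so their difference shows how far a member moved without a mutation. In liver no member was called by edgeR or DESeq2, where 13.1% of all genes were, and 1 of 10 had an unadjusted p below 0.05, where 28% did. The groups nonetheless did not overlap for 2 of 10, as for 10.7% of all genes. Stab2 was at 391 to 428 CPM in the WT of the S226A litters and 439.6 to 486 CPM in those of the Y130A litters, and Vwf at 127 to 159.8 and 102 to 122 CPM. In lung 2 of 10 were higher in the WT of the S226A litters, where 10.8% of all genes were. Vwf was at 153, 105, 158 and 168 CPM in those lungs and at 69.3, 82.6 and 80.6 CPM in the WT lungs of the Y130A litters. The groups were apart, with a log2 difference of 0.91 (SE 0.14, adjusted p = 1.56e-05). Cdh5 was at 596, 538, 740 and 676 CPM and at 374, 460 and 454 CPM (log2 0.57, SE 0.13, adjusted p = 0.000942). In brain Vwf again differed, 1 of 10, where 1.47% of all genes were called higher (48.0, 42.4, 41.5 and 49.9 against 28.6, 33.7, 28.8 and 38.8 CPM, log2 0.48, SE 0.13, adjusted p = 0.0185). It was called in 4 of the 8 fits that left out a library, and was lost without WT replicate 1 (adjusted p = 0.055) or 4 (0.0801) of the S226A litters or 1 (0.0692) or 3 (0.098) of the Y130A litters. Each mutant lay with its own littermates, with 112 to 145 CPM of Vwf in S226A lung and 69.4 to 87.0 CPM in Y130A lung. Litter set, depth and any other difference in handling cannot be told apart here, and the 0.91 of Vwf between WT lungs stands beside 0.90 for Stab2, the largest log2 change of a member called in a mutant.

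**Figure D5:**
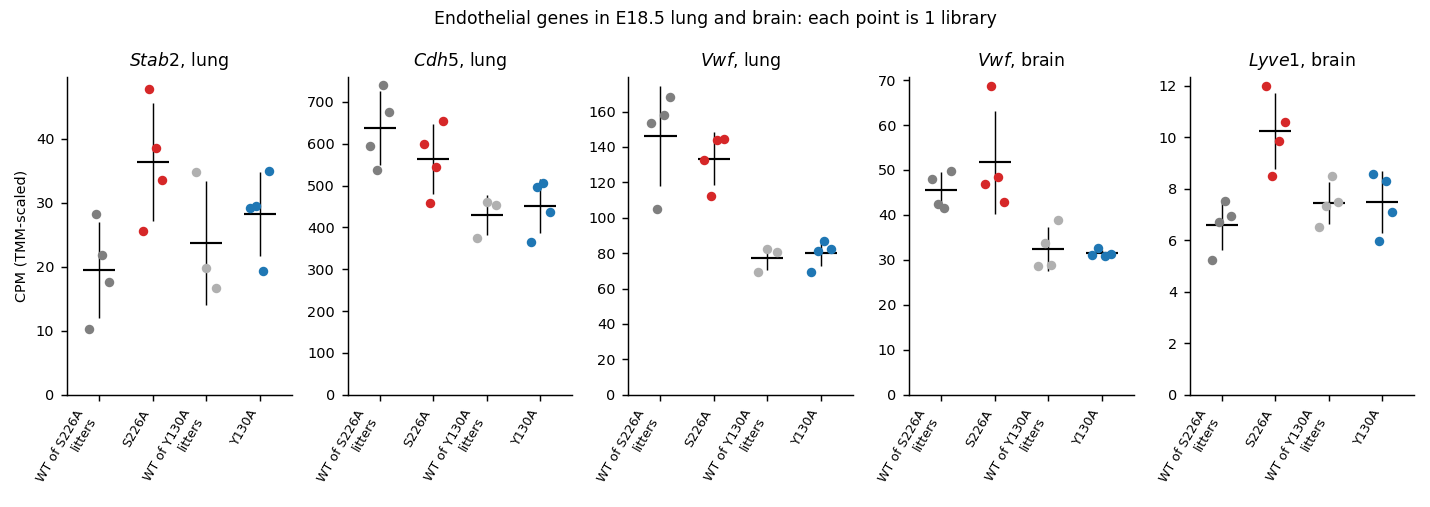
CPM in each library for Stab2, Cdh5 and Vwf in lung and Vwf and Lyve1 in brain, by group (n = 4, or 3 for WT lungs of the Y130A litters), with mean and SD. Stab2 is higher in S226A lung than in the littermates, Lyve1 in S226A brain lies above them, and Vwf in lung lies at 105 to 168 CPM in the S226A set and 69.3 to 87.0 CPM in the Y130A set, while the sets overlap for Cdh5.

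How far the members varied together from embryo to embryo depended on the pair and the tissue. Deviations of log2 CPM from the group mean were correlated between pairs of members over the libraries of each tissue, as a description of embryos that share litter and library depth. Pairs of general endothelial genes had a median Pearson r of 0.44 in liver (16 libraries), 0.47 in lung (15) and 0.48 in brain (16). Pairs of sinusoidal genes had a median of 0.53 in liver, but -0.01 in lung and -0.03 in brain. The 24 pairs of a general with a sinusoidal gene had 0.58 in liver, 0.0012 in lung and -0.04 in brain. Clec4g had 5 to 43 counts in lung and at most 4 in brain, and Stab2 had 2 to 44 in brain, so low counts limit r for pairs that hold them. The sinusoidal pair without them in brain, Lyve1 with Gpr182, had 0.39. In lung the sinusoidal pairs without Clec4g lay from -0.08 to 0.22. In liver Lyve1 with Clec4g (0.84) and Kdr with Lyve1 (0.81) were among the closest, and Tek stood apart, with -0.17 to Cdh5 and -0.46 to Gpr182. Over all 47 libraries the gene whose deviations were most like those of Flt1 was Vegfa, its ligand (r = 0.77), then Kdr (0.76) and Vwf (0.73). For Kdr the closest was Flt1, then Lrrc32 (0.70) and Cdh5 (0.68). For Cdh5 they were Msn (0.81), Itga9 (0.79) and Sema6a (0.78), and for Pecam1 they were Pdk4 (0.71), Insig1 (0.70) and Txnip (0.70).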

How the data were processed

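The deposited table holds whole-number counts per gene, which the authors summarised per gene with STAR 2.6.0b. The submitters' processing notes also name FastQC 0.11.5, Trim Galore 0.6.5 and the build GRCm38, and the strand setting is not given in the sources used here. Of 20456 gene identifiers 20424 matched a symbol, and exon lengths came from GENCODE M21. Groups, litters and embryos were read from the labels. Genes were kept with edgeR's filterByExpr (minimum count 10, minimum total 15), leaving 16892. Counts were scaled by trimmed mean of M values (TMM), CPM were computed from them, and all 47 libraries were fitted together in edgeR 4.0.16 (R 4.3.3) with 1 coefficient per group and no covariate. The quasi-likelihood test gave p-values adjusted by Benjamini-Hochberg over all genes tested, and a call is an adjusted p below 0.05, with a change beyond 2-fold between tissues. SE is the log2 fold change divided by the root of the F statistic, and 95% intervals are normal. DESeq2 1.42.0, other size factors, no filter, the compared libraries alone, litter or embryo blocks, thinning of the deeper set and leaving out each library were alternatives, and leaving out the livers with squamous transcripts was added after seeing the data. The litter and embryo blocks were fitted on the compared libraries only.

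Litters pair the samples by the labels, and same-litter pairs of a mutant and a WT library correlated in their deviations from the group mean above 0.1 in 18 of 23 cases (median 0.21), other pairs in 5 of 69. No replicate libraries agreed within sampling noise (lowest chi-square per degree of freedom 4.09 over 69 pairs). Within a group every sample is a separate embryo. The main fit estimates the spread of a gene over all 47 libraries together. Its p-values therefore draw on the spread between embryos in every tissue and group, not in the compared groups only. For Stab2 the calls in S226A liver and lung differed between this fit and that of the compared libraries alone. Named genes were the members, Daxx, the called genes of the fixed lists, genes whose exons overlap those of a member, and the genes most like a member in their deviations. The members and lists were chosen with earlier results of these data known. The fits were tested on simulated counts, and upstream sequences came from RefSeq on GRCm38.p6. Python 3.11.15 and matplotlib 3.10.9 made the sequence tables and plots.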

Additional observations from a re-analysis of the deposited data

Results flagged for a closer look

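Over the 10 genes, 106 groups of 4 libraries were examined for a sample set apart from the rest, and 8 were found where the gap to the nearest sample passed Dixon's 95% limit. Chance gives about 1 in 20 such groups. Of the 8, 3 came from the same library, S226A liver replicate 2, the lowest of its group for Kdr at 101 CPM (nearest 128 CPM), for Stab2 at 239 CPM (nearest 324 CPM) and for Clec4g at 10.2 CPM (nearest 19.5 CPM). In the WT livers of the S226A litters, replicate 3 was highest for Vwf at 160 CPM (nearest 132 CPM). In S226A brain, replicate 2 was highest for Kdr at 110 CPM (nearest 88.8 CPM). In the WT brains of the S226A litters, replicate 4 was lowest for Pecam1 at 29.2 CPM (nearest 32.2 CPM) and replicate 1 lowest for Tek at 22.4 CPM (nearest 26.3 CPM). In the WT lungs of the S226A litters, replicate 2 was highest for Clec4g at 1.75 CPM (nearest 0.422 CPM), and the same lung held the most hepatocyte transcripts of its group at 440 CPM.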

How the results depend on the processing

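The counts of members called between tissues (7, 7 and 10) and between the alleles (0 in each tissue) were within 1.5 times the reported count in all 64 and 68 alternative values. Under the stringent criteria 0 members were called in S226A liver (from 3), in S226A lung (from 1), and between WT sets in lung (from 2) and brain (from 1), by the criteria's own construction. DESeq2 called 1 member in S226A brain (from 0, Lyve1), and the cause was not tested. With only the compared libraries fitted, S226A lung had 0 calls, WT sets in lung 1 (Vwf), and in S226A liver the 2 calls were Cdh5 and Stab2, a fit of fewer samples. The litter replicate block, fitted on the compared libraries only, called 4 members in S226A liver (Stab2 in addition), 1 in the lung and 0 in the brain of S226A embryos. It called 0 in every Y130A tissue and changed no other call. Shares of all genes called were computed for the main fit and for DESeq2 in S226A brain only. The counts of the other alternative fits therefore have no share to be read against. Leaving out 1 library at a time gave 1 to 3 calls in S226A liver, 0 to 1 in S226A lung, 0 to 1 between WT sets in brain (0 without WT replicate 1 or 4 of the S226A litters, or 1 or 3 of the Y130A litters) and 2 to 3 in lung. Of 782 single-gene values in the mutant comparisons 762 kept their direction where called and their side of the threshold, 17 lost the call and 3 gained it, and 54 uncalled values changed sign. Without the filter Gpr182 in S226A liver had an adjusted p of 0.0532. Depth limits Clec4g in lung and brain and Stab2 in brain.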
